A study of Mus musculus with 8 samples.

Results

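The libraries described here were 3 RNA-seq libraries of liver-specific Slc39a8 knockout (LSKO) mouse hepatocytes, each given a different element, and 2 libraries of untreated wild-type (WT) hepatocytes, 5 of the 8 samples in the series. They were chosen by genotype and treatment label alone. The 3 LSKO libraries, given iron as ferrous chloride, selenium as sodium selenite or zinc as its chloride at 2 µM for 24 h (the series text says overnight), were taken as 1 group of 3 and compared with WT, to see what all 3 shared. WT cells came from Slc39a8(F/F) mice, which carry the floxed gene without Cre, and LSKO cells from Alb-cre(+/+) Slc39a8(F/F) mice, in which the albumin promoter drives Cre in hepatocytes. All mice were C57BL/6 at post-natal week 8. Every culture, WT included, was kept without serum and with dexamethasone, a synthetic glucocorticoid. No WT culture was given a metal, so genotype and metal addition cannot be told apart in this comparison. For that reason the results of the 2 untreated LSKO libraries against the same WT libraries, from a fit of all 8 libraries, are given beside the main gene groups. The labels do not say that replicates came from separate animals, so p-values measure the spread between these samples, which may be technical.

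Slc39a8 encodes ZIP8, a plasma membrane carrier that brings zinc, manganese, iron and selenite into cells. The hepatocyte is the main parenchymal cell of the liver. It makes most plasma proteins, clears drugs and bile acids, and runs the urea cycle and gluconeogenesis, and these programs fade when the cells are taken into culture. Hepatocyte preparations also carry some of the other liver cells, among them the endothelial cells that line the sinusoids, the resident macrophages called Kupffer cells, and stellate cells.

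Reads assigned to genes numbered between 19943899 and 27731054 in the 5 libraries. Values are CPM, counts scaled to a common library size after TMM normalization. Albumin (Alb), at 17610 to 42210 CPM, was among the most abundant transcripts in all 5, and 16 of 16 hepatocyte markers were detected. The libraries did not stand at equal distances. The SD of the log2 difference over 9959 protein-coding genes was 0.182 between the WT libraries and 0.349 to 0.564 between pairs of treated libraries, largest between iron and selenite. Between treated and WT libraries it was 0.432 to 0.641, so the treated libraries differed among themselves by up to about as much as from WT, and iron lay nearer to WT (0.447 and 0.45) than to selenite (0.564). The WT pair still differed by more than counting error (chi-square per degree of freedom 5.98 over 15575 genes).

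Slc39a8 (ENSMUSG00000053897, chromosome 3, 135825279 to 135888572 of GRCm38, + strand) was lower in each treated LSKO library. It stood at 12.6 and 15.4 CPM in WT, and at 2.30 with iron, 1.45 with selenite and 1.81 with zinc. The groups did not overlap, and the mean of 1.85 ± 0.43 CPM (SD, n = 3) was 7.56-fold below the 14.0 ± 2.01 of WT (SD, n = 2), a log2 fold change of -2.92 ± 0.26 (SE, adjusted p = 0.00897). In the untreated LSKO libraries, scaled together with all 8 libraries, it stood at 8.15 and 1.88 CPM, so that the first of them lay closer to WT (12.7 and 15.5 on that scale) than to any treated library. Gene counts cannot place the remaining reads inside or outside the deleted stretch.

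Of 12405 protein-coding genes tested, 222 (1.79%) were called higher and 76 (0.613%) lower in treated LSKO cells than in WT. A call needed an adjusted p under 0.05, over all 15378 genes tested, and a log2 fold change beyond 0.5. The called rises had a median log2 fold change of 1.63 and the falls of -1.2, against 0.00223 over all protein-coding genes. In all 298 called genes each of the 3 treated libraries lay beyond 0.5 (log2) from the WT mean on the called side and outside both WT libraries. The fit counts differences between the 3 metals as spread, so a gene moved by a single metal tends not to be called. Before adjustment 1065 genes (8.59%) passed 0.05 as higher and 838 (6.76%) as lower, the background for such counts given below. Without any test, 2187 genes (17.6%) had all 3 treated libraries above both WT libraries and 2240 (18.1%) had all 3 below. These shares, and the shares called, are the background for the list counts below. The number of calls depended on single libraries: 5 genes were called without the zinc library, 1427 without the iron library, 324 without the selenite library, and 0 without either WT library, where 1 WT sample is assumed to vary like the treated ones. At an unadjusted p under 0.05, edgeR gave 576 higher and 370 lower genes without WT replicate 1, and 547 and 288 without WT replicate 2. All 298 called genes kept their direction without any of the treated libraries, and 296 without either WT library.

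**Figure D1:**
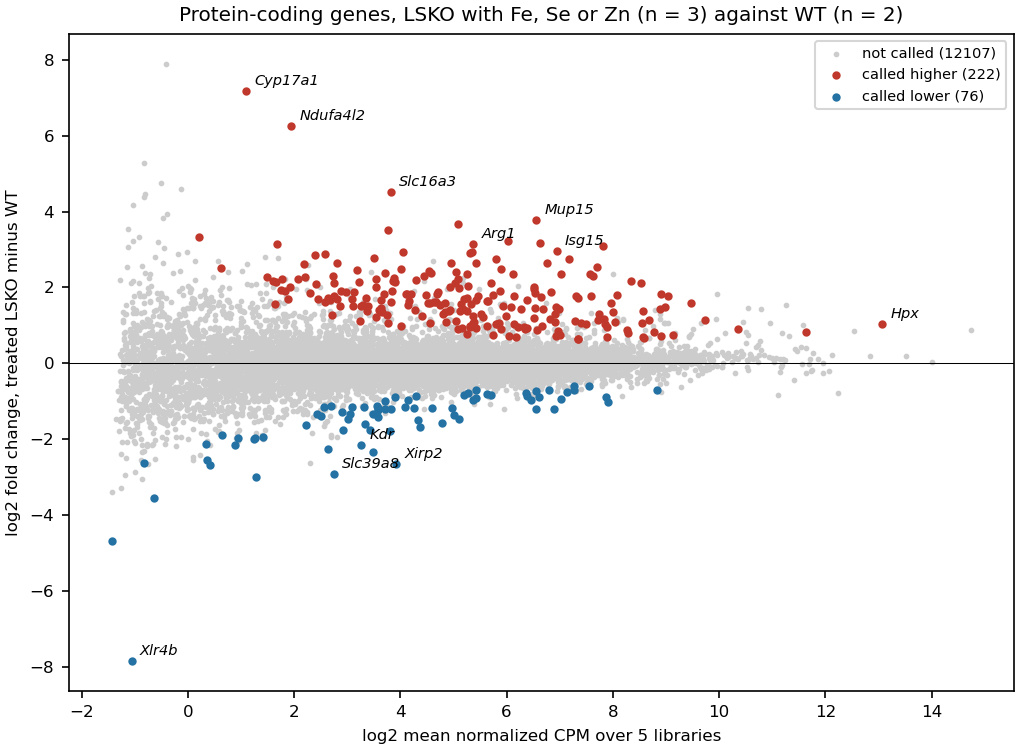
Each point is a protein-coding gene, with its log2 mean normalized CPM over the 5 libraries on the x axis and its log2 fold change, treated LSKO minus WT, on the y axis. Red and blue points are the 222 genes called higher and the 76 called lower, grey points the 12107 not called, and called genes appear on both sides over most of the range of levels.

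The largest rise among genes of at least 5 CPM was that of Slc16a3, which encodes the lactate exporter MCT4. It read 0.996 and 0.998 CPM in WT, and 27.9 with iron, 25.7 with selenite and 15.2 with zinc. All treated libraries lay at over 15 CPM, and the mean was 22.9-fold that of WT (log2 fold change 4.51 ± 0.35, adjusted p = 0.00897). Other genes among the 15 largest rises were the major urinary protein genes Mup15, Mup19, Mup17 and Mup11, the defensin gene Defb1, the acute phase gene Saa3, the arginase gene Arg1, Selenbp2, the interferon-induced Isg15, Zbp1 and Ifit3b, Urad of urate breakdown, and the carboxylesterase gene Ces1d. Their log2 fold changes ran from 2.77 in Ces1d to 3.78 in Mup15. The largest falls after Slc39a8 were in Xirp2, which encodes an actin-binding repeat protein (-2.66 ± 0.26, adjusted p = 0.00959), the water channel gene Aqp1 (-2.32), Cyp26b1, an enzyme that clears retinoic acid (-2.25), and the VEGF receptor gene Kdr (-2.16). Mrc1, Ptprb, Apln, Eng, Bmp2, Stab1, Stab2, Myof, Trp53i11 and Robo4 completed the 15, at -1.42 in Robo4 to -1.78 in Mrc1. Xirp2, Eng, Stab1 and Stab2 share exon sequence with a gene on the opposite strand, and the strand setting of the counts is not given in the sources used here. Among genes named below, the same holds for Bnip3, Tpi1, Dll4, Fgg, Ugt1a1, Ugp2, Cebpd, Mt2 and Slc30a1, among others.

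**Figure D2:**
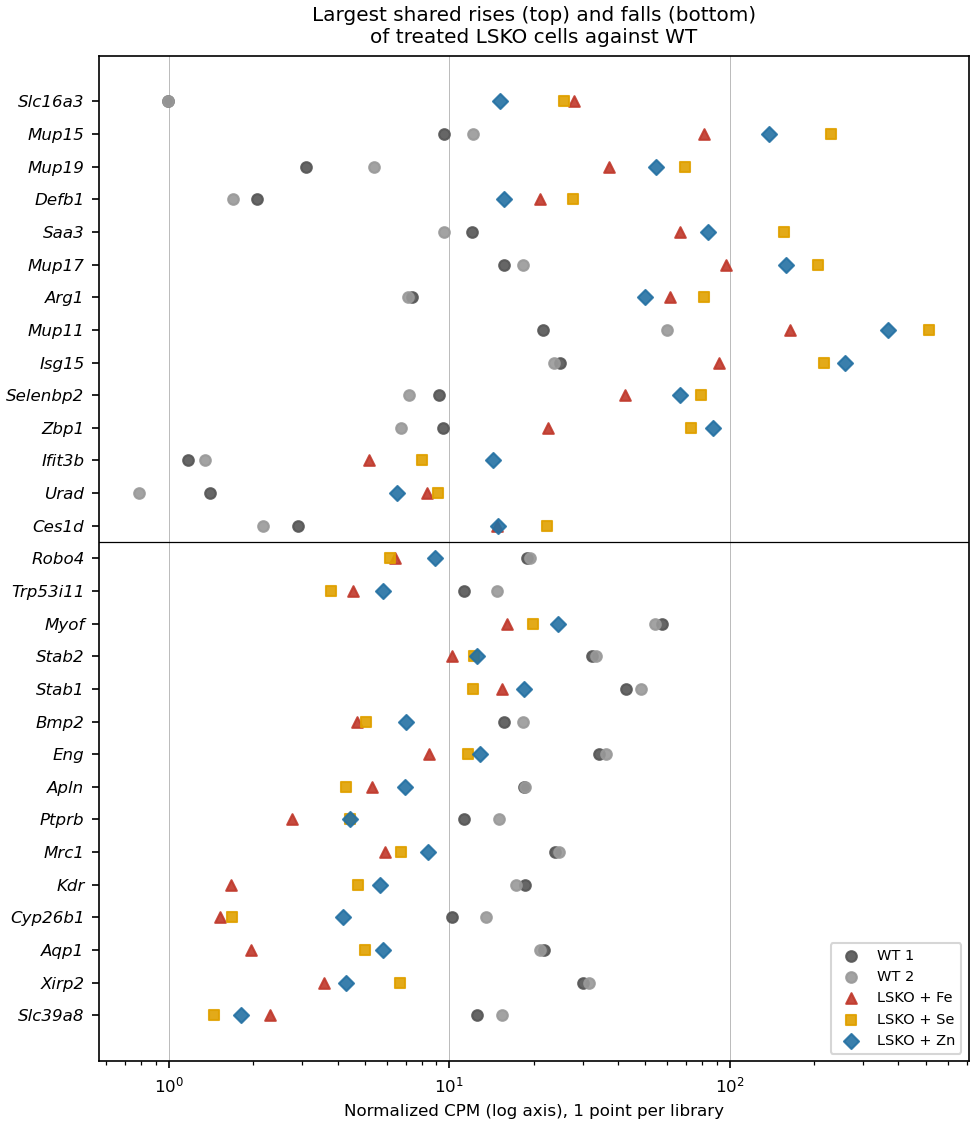
Normalized CPM on a log axis of 14 of the 15 largest rises and of the 15 largest falls, 1 point per library, with WT as grey circles and LSKO with iron, selenite and zinc as red triangles, yellow squares and blue diamonds. In every row the 3 treated libraries lie on one side of both WT libraries, in Mup11 and Zbp1 with a wide spread among them.

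Genes of the liver sinusoidal endothelium were lower in treated LSKO cells. This endothelium is perforated and strips waste from blood through scavenger receptors. Of 19 markers tested, 9 fell and none rose (background 0.613% lower), 17 lay below both WT libraries in all 3 treated libraries, and the median log2 fold change was -1.34. Kdr, the main VEGF receptor of endothelium, read 18.7 and 17.4 CPM in WT and 1.67, 4.72 and 5.67 with iron, selenite and zinc. The treated values were all below 6 CPM, lowest with iron, and the fall was -2.16 ± 0.42 on the log2 scale (adjusted p = 0.049). Stab2, a hyaluronan scavenger receptor, read 32.3 and 33.5 CPM in WT and 10.3, 12.3 and 12.6 in the treated libraries, close to each other and far from WT (-1.49 ± 0.16, adjusted p = 0.0106). Its relative Stab1 fell by 1.56, the TGF-beta co-receptor gene Eng by 1.68, the receptor phosphatase gene Ptprb by 1.76, Tie1 by 1.62 and the lymphatic VEGF receptor gene Flt4 by 1.34, and the log2 fold changes of Egfl7 and Oit3 were -1.197 and -1.19. The remaining 10 markers did not pass the test, among them the C-type lectin gene Clec4g with 9.17 and 10.6 CPM in WT and 0.343, 2.31 and 2.13 in the treated libraries (log2 fold change -2.61 ± 0.56, adjusted p = 0.0692), Pecam1 (-0.78, adjusted p = 0.0704) and Cdh5 (-0.75, adjusted p = 0.0605). Lyve1 differed among the metals, at 27.9 and 29.7 CPM in WT, 12.4 with iron, 28.8 with selenite and 20.4 with zinc.

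The summed level of the 19 endothelial markers was 394.6 and 429.5 CPM in WT and 150.9 with iron, 198.9 with selenite and 201 with zinc. In the untreated LSKO libraries the sum was 330.7 and 257.7 CPM on the scale of all 8 libraries, between the WT (398.6 and 431.8) and the treated values (153.5 to 204). There 7 of the 19 were lower than in WT (background 2.01%, median -0.53). In these bulk samples fewer cells of a type and less RNA per cell cannot be told apart. The number of endothelial calls was 15 without the iron library, 10 without selenite, 0 without zinc and 0 without either WT library, while the median ran from -1.14 without WT replicate 2 to -1.51 without WT replicate 1.

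Few markers of the other non-parenchymal cells were called, but stellate cell markers lay below both WT libraries more often than all genes did. No Kupffer cell and macrophage marker was called by edgeR among 18 tested (DESeq2 called 1 higher). Before adjustment 4 higher and 0 lower passed 0.05 (background 8.59% and 6.76%). The summed level of the 18 was 301.7 and 275.3 CPM in WT and 375.4, 478.2 and 428.4 in the treated libraries. The members did not all follow the sum. Of them 1 lay above both WT libraries in all 3 treated libraries and 1 below (background 17.6% and 18.1%). In the fit of all 8 libraries their median log2 fold change against WT was -0.45 with iron, 0.78 with selenite and 0.45 with zinc. The Kupffer cell lectin gene Clec4f read 6.87 and 6.38 CPM in WT and 6.27, 11.1 and 8.85 in the treated libraries. No stellate cell and fibroblast marker was called among 14 tested (1 lower by DESeq2). Before adjustment 1 higher and 5 lower passed 0.05 (background 8.59% and 6.76%). The median log2 fold change of the 14 was -0.85, and 10 lay below both WT libraries in all 3 treated libraries (background 18.1%). Their summed level was 76.8 and 82.7 CPM in WT against 39.5 with iron, 73.2 with selenite and 66.2 with zinc. Acta2, the smooth muscle actin of activated stellate cells, read 11.2 and 12.02 CPM in WT and 0.392, 5.35 and 3.62 in the treated libraries, lowest with iron (adjusted p = 0.275). Of the bile duct markers 1 of 8 fell (background 0.613% lower), the tight junction gene Cldn4 (-0.90 ± 0.16, adjusted p = 0.0403). The summed level of the bile duct markers went from 639.6 and 631.9 CPM to 482, 475.2 and 453.2. Only 2 of 16 markers of neutrophils, lymphocytes and red cells had enough reads to be tested, and neither was called (1 higher at an unadjusted p under 0.05, 0 by DESeq2). The summed hepatocyte markers moved the other way, from 23570 and 22660 CPM in WT to 33320, 54100 and 40290. Of these 16 markers 4 were called higher and 0 lower (background 1.79% and 0.613%), and 14 lay above both WT libraries in all 3 treated libraries (background 17.6%). The part of these marker levels in the other results was not tested.

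**Figure D3:**
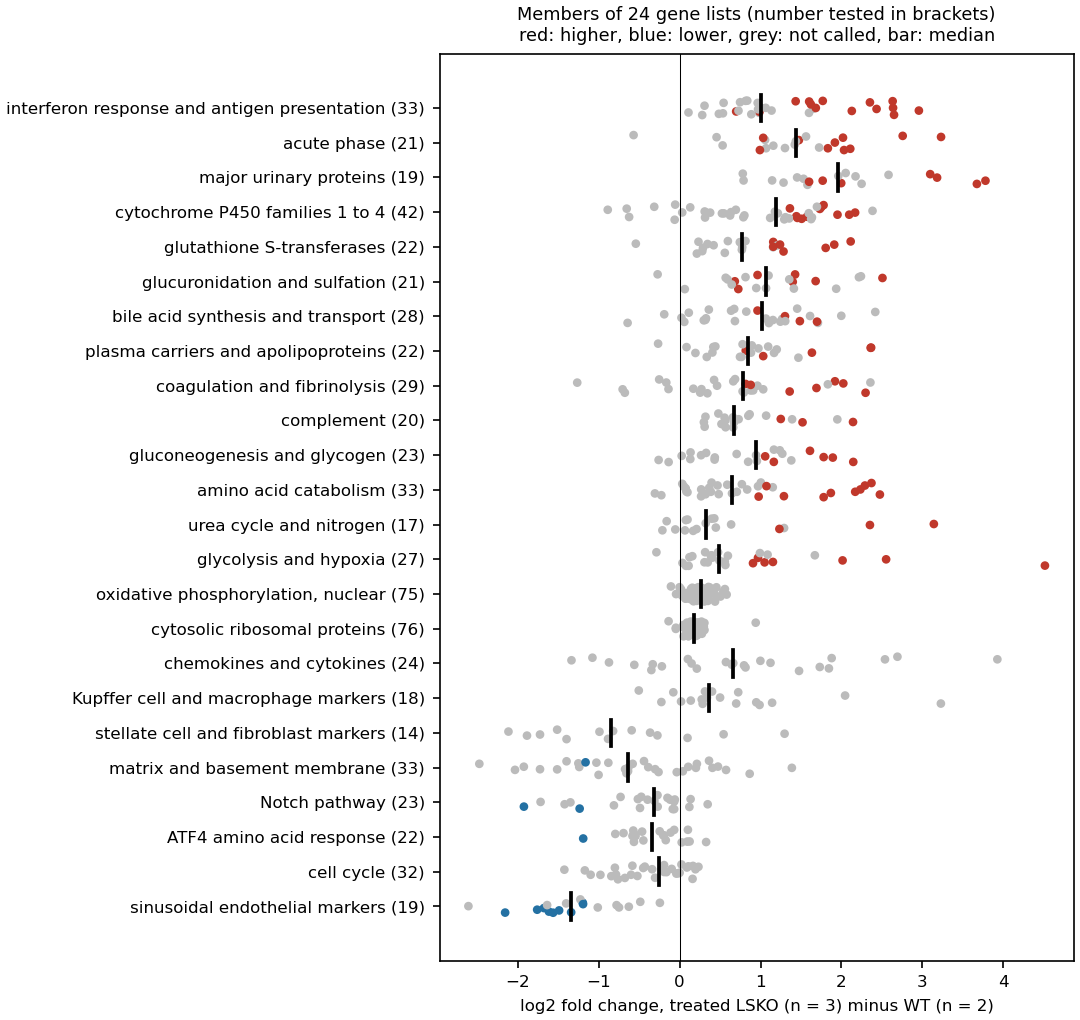
Log2 fold changes, treated LSKO (n = 3) minus WT (n = 2), of the tested members of 24 gene lists, with each list's number of members in brackets. Red and blue points are called genes, grey points are not, black bars are medians, which run from -1.34 in the sinusoidal endothelial markers to 1.96 in the major urinary proteins.

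Interferon-stimulated genes were higher in treated LSKO cells. Interferons signal through a factor complex that holds IRF9 to a DNA element with the repeated core GAAANNGAAA, and the induced genes make antiviral enzymes and antigen-presenting proteins. Of 33 genes tested, 14 rose and none fell (background 1.79% higher), all 33 had positive log2 fold changes, 28 lay above both WT libraries in all 3 treated libraries, and the median was 1.005. The promoters of 3 of them are shown because they hold this core, in capitals on either strand, within 150 bases before the start site (RefSeq, GRCm38.p6). The windows are chr4:156200819-156200968 (- strand), chr19:34640739-34640888 (+ strand) and chr12:26456453-26456602 (- strand).
Isg15: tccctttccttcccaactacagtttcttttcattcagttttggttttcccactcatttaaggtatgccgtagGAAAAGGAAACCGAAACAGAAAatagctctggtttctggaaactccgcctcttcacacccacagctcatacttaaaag
Ifit1: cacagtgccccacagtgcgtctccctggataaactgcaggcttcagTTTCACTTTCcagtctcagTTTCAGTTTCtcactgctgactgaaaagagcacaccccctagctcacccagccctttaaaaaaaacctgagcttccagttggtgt
Rsad2: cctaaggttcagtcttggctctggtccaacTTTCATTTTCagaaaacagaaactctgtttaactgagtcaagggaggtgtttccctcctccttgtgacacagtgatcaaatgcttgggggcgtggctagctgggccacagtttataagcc

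Searched on both strands in windows of 250 bases before to 50 after the start, GAAANNGAAA was present in 13 of 32 promoters of the 27 listed genes that matched the RefSeq table (40.6%) and in 7 of 14 promoters of the 12 called genes that matched. It was present in 3.44% of all 32851 promoters and in 3.13% of those of the protein-coding genes tested. The 3 matches in Isg15 overlap each other. A match is a description of the letters, not evidence of binding.

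Isg15, a ubiquitin-like modifier, read 24.9 and 23.7 CPM in WT and 91.5 with iron, 218 with selenite and 257 with zinc. The iron library was the lowest of the 3 and still clear of both WT values, and the log2 fold change was 2.96 ± 0.43 (adjusted p = 0.0232). Rsad2, which encodes the antiviral enzyme viperin, read 28.0 and 24.8 CPM in WT and 135, 150 and 207 in the treated libraries, with little spread among them (2.63 ± 0.22, adjusted p = 0.00897). Ifit1, which encodes a sensor of viral RNA caps, read 9.55 and 11.1 CPM in WT and 35.6, 80.1 and 78.6, again lowest with iron (2.65 ± 0.37, adjusted p = 0.0215). Usp18, which removes ISG15 from proteins, rose by 1.60, the guanylate-binding gene Gbp3 by 2.13, the immunity-related GTPase genes Iigp1 by 2.35 and Igtp by 1.68, Ifi44 by 2.64, Ifit3 by 2.43, Xaf1 by 1.77, the class I gene H2-Q7 by 1.43, Oas1a by 1.62, Ifi35 by 0.99 and Irf9 itself by 0.70. H2-Q7, Gbp3 and the Ifit genes have close relatives, and reads shared among copies make their counts less certain.

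Per library, the median of the 33 interferon genes lay 0.61 above the WT mean with iron, 1.26 with selenite and 1.27 with zinc, and 0.683 and 1.196 above it in the untreated LSKO libraries (log2(CPM + 0.5), all sharing the WT libraries). Untreated LSKO had 26 of the 33 higher than WT (background 5.94%). Treated and untreated LSKO cells were called different in 0 of the 33 by edgeR (background 1.44% higher and 2.32% lower). Without the zinc library 1 of the 33 was called against WT, without iron 29, without selenite 14, and without either WT library 0. The chemokine and cytokine genes did not share this pattern across the metals. Their median log2 fold change against WT was -0.56 with iron, 1.09 with selenite and 0.76 with zinc, and none of 24 was called for the 3 treated libraries together by edgeR (6 higher and 1 lower passed 0.05 before adjustment, 6 higher by DESeq2). Of 22 NF-kB genes none was called by edgeR or DESeq2 (2 higher and 2 lower passed 0.05 before adjustment).

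**Figure D4:**
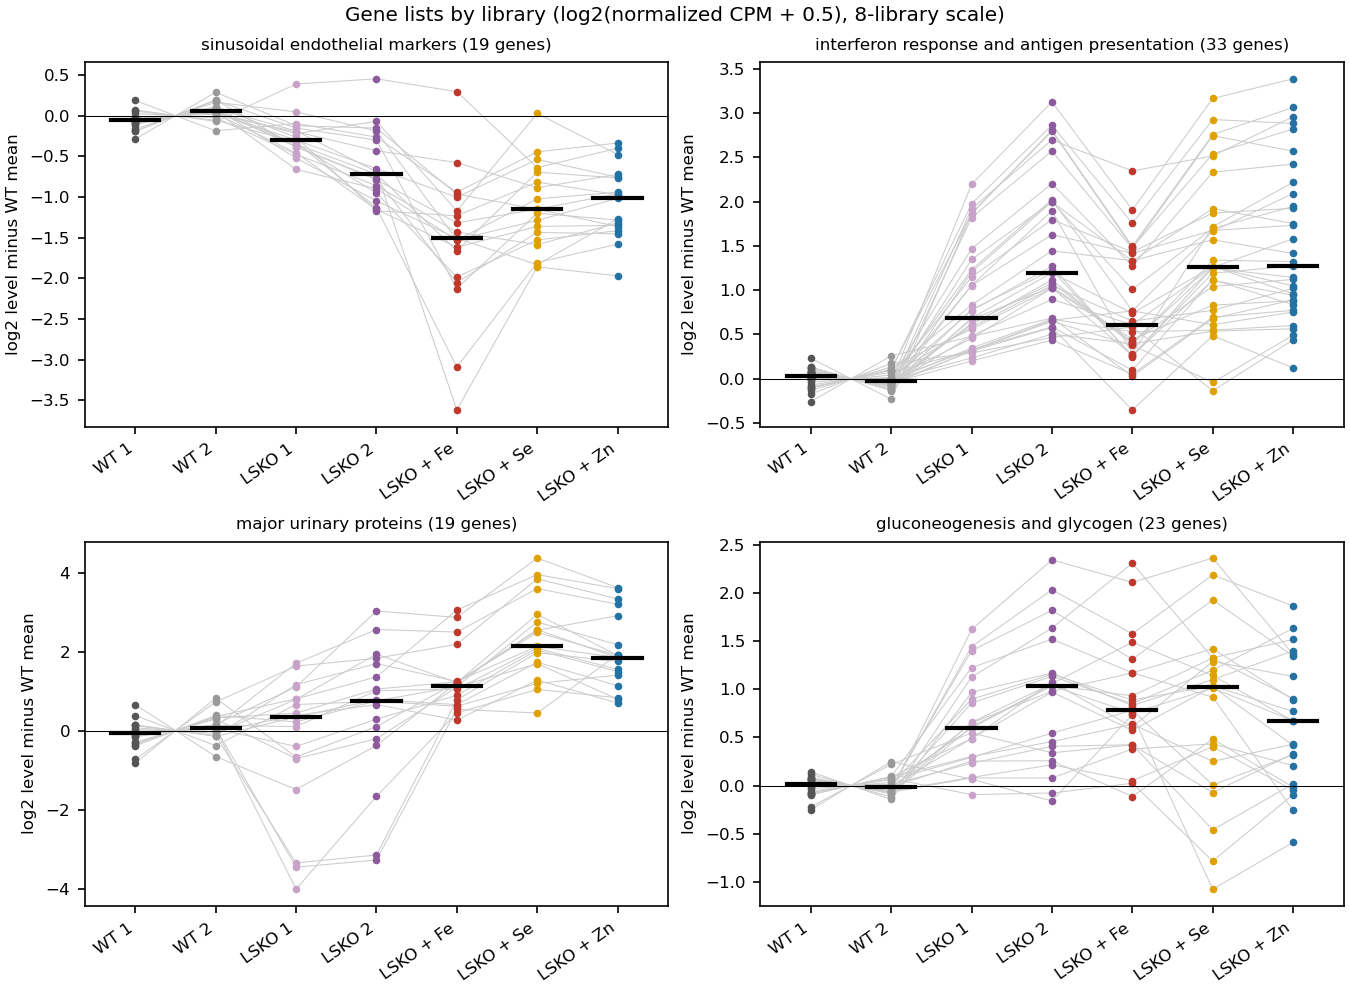
Each point is a gene, plotted for each library as log2(normalized CPM + 0.5) minus the mean of the 2 WT libraries, for 4 gene lists. Grey lines join the values of a gene and black bars are medians, which for the endothelial markers fall to -1.51 with iron and for the interferon genes rise to 1.27 with zinc.

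Genes of glycolysis and of the hypoxia response were higher in treated LSKO cells. Low oxygen stabilises hypoxia-inducible factors, which bind the core ACGTG and raise glycolytic enzymes and lactate export. Of 27 genes tested, 7 rose (background 1.79% higher) and none fell, and the median log2 fold change was 0.49. In all 3 treated libraries 19 lay above both WT libraries (background 17.6%). The windows of the 2 most changed members that hold the core within 150 bases of the start are shown with ACGTG in capitals on either strand, chr11:120948917-120949066 (+ strand) and chr7:138909507-138909656 (- strand).
Slc16a3: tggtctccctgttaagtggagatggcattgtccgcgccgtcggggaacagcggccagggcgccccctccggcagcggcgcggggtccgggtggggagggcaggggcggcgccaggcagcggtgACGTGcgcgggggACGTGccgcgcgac
Bnip3: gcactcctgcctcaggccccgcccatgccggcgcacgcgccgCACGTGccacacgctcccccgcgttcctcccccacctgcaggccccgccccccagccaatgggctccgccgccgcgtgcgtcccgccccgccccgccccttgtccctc

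ACGTG was present in 22 of 37 promoter windows of the listed genes (59.5%). It was present in 5 of 8 windows of the 7 called genes (62.5%), a share near that of the whole list. The share was 25.1% over windows of the protein-coding genes tested and 19.6% over all windows. Slc16a3 holds it 2 times, and in Bnip3 the 2 matches are the opposite strands of the same letters. Bnip3, which encodes a mitophagy receptor, read 54.6 and 51.9 CPM in WT and 274, 457 and 206 in the treated libraries (log2 fold change 2.55 ± 0.33, adjusted p = 0.0187). The treated values were each above 200 CPM, highest with selenite. Egln3, the oxygen-sensing prolyl hydroxylase that is itself a target of the pathway, read 4.53 and 3.73 CPM in WT and 18.0, 19.4 and 12.9 (2.01 ± 0.25, adjusted p = 0.0163). The glycolytic enzyme genes Tpi1, Pkm, Pfkl and Pgk1 rose by 1.153, 1.05, 0.97 and 0.91. Slc16a3 and Bnip3 were also higher in untreated LSKO than in WT (log2 fold changes 4.19 and 2.11, with the WT libraries shared), and Slc16a3 was not called between treated and untreated LSKO (0.29, adjusted p = 0.325). In untreated LSKO 8 of the 27 were higher than in WT (background 5.94%, median 0.36). Without the zinc library 1 of the 27 was called, without selenite 8, without iron 12, and without either WT library 0.

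Several groups of secreted liver proteins were higher. Acute phase proteins, which the liver releases on inflammation, rose in 10 of 21 tested genes (background 1.79% higher) and fell in none. Their median log2 fold change was 1.44. Saa3, a serum amyloid A gene, read 12.1 and 9.59 CPM in WT and 66.4, 156 and 83.8 in the treated libraries, each far above WT (3.23 ± 0.39, adjusted p = 0.0155). Orm2, an orosomucoid gene, read 10.5 and 14.6 CPM in WT and 67.3, 109 and 77.5 (2.76 ± 0.27, adjusted p = 0.00959). Fgl1 rose by 2.11, Crp, the C-reactive protein gene, by 2.03, and Serpina3m by 2.02, and Itih3 and Lbp, which binds bacterial lipopolysaccharide, by 1.03 and 0.99. Orm1, Orm2 and Orm3 are close copies, as are many Serpina3 genes, so reads may be split among them. In untreated LSKO against WT 16 of the 21 were higher and 1 lower (background 5.94% and 2.01%, median 0.78), and 7 were higher in treated than in untreated LSKO (background 1.44%). Without the zinc library 0 of the 21 were called, without iron 19, without selenite 13, and without either WT library 0.

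The major urinary proteins, carriers of pheromones made in the liver, had 7 called genes of 19 (background 1.79% higher), none lower. Their median log2 fold change was 1.96, and all 19 lay above both WT libraries in each treated library (background 17.6%). Mup15 read 9.62 and 12.2 CPM in WT and 81.2, 229 and 138 in the treated libraries (3.78 ± 0.45, adjusted p = 0.0153). The values ran lowest with iron and highest with selenite, as in Mup11 (21.6 and 60.0 CPM in WT, then 164, 515 and 366). These genes are near-identical copies that share reads, so single members are uncertain and the 19 are not independent. Their summed level was 3570 and 3658 CPM in WT and 5956, 12550 and 8887 in the treated libraries. Untreated LSKO had 8 higher and 3 lower against WT (background 5.94% and 2.01%, median 0.61). Without the zinc library 0 were called, without iron 16, without selenite 8, and without either WT library 0.

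Of plasma carriers and apolipoproteins 5 of 22 rose, with a median of 0.85 (background 1.79% higher, here and for the lists that follow). The thyroxine-binding globulin gene Serpina7 rose by 2.37 and Apof by 2.36. The haem carrier Hpx went from 5477 and 5058 CPM in WT to 9083, 12290 and 10960 (1.03 ± 0.19, adjusted p = 0.0454). Among coagulation and fibrinolysis genes 7 of 29 rose, with a median of 0.78, including the fibrinogen gamma chain gene Fgg (2.30), the factor genes F10 (1.92) and F2 (0.82), Proz (1.69), Cpb2 (1.36) and Plg (0.88). Of complement genes 3 of 20 rose, C6 (2.14), C4bp (1.52) and C8b (1.25). All 20 had positive log2 fold changes, against 50.2% of all protein-coding genes tested. Alb itself, at 18430 and 17610 CPM in WT and 26880, 42210 and 31230 in the treated libraries, lay above WT in all 3 and did not pass the test (0.89 ± 0.24, adjusted p = 0.135). Nor did Apoa1 (1.47, adjusted p = 0.0653) or the fibrinogen alpha chain gene Fga (2.36, adjusted p = 0.0696). In untreated LSKO against WT 14 of the 22 carriers were higher (median 0.81), 18 of the 29 coagulation genes were higher and 1 lower (0.70), and 11 of the 20 complement genes were higher (0.57). The background there was 5.94% higher and 2.01% lower. Treated and untreated LSKO differed in 2, 2 and 0 genes of these lists (background 1.44% higher and 2.32% lower). In these 3 lists no gene was called without the zinc library or without either WT library, and 14, 18 and 15 were called without iron.

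Some enzymes that handle drugs and steroids were higher. Cytochrome P450 genes of families 1 to 4 encode haem enzymes that oxidise drugs, steroids and fatty acids. Of 42 tested, 11 rose (background 1.79% higher) and none fell, with a median log2 fold change of 1.19. Cyp2b10, a classical target of the receptor CAR, read 50.01 and 50.7 CPM in WT and 172, 128 and 111 in the treated libraries (1.44 ± 0.20, adjusted p = 0.0212), here highest with iron. Cyp3a11, a target of PXR, read 36.0 and 31.4 CPM in WT and 92.1, 176 and 123 (1.95 ± 0.27, adjusted p = 0.0215). Cyp4a12a rose by 2.17, Cyp2c67 by 2.096, Cyp2a5 by 1.78, Cyp2e1 by 1.75 and Cyp1a2 by 1.36. Many of these genes sit in clusters of close copies. Glutathione S-transferases, which join glutathione to reactive compounds, had 7 of 22 called, none lower, with a median of 0.77. Gsta2 read 18.7 and 15.9 CPM in WT and 50, 72.1 and 103 (2.11 ± 0.30, adjusted p = 0.0232), and Gstm3, Gstm2, Gstm4 and Gstm6 rose by 1.91, 1.81, 1.28 and 1.24. Of 21 glucuronidation and sulfation genes 7 rose, with a median of 1.07, among them the bilirubin-conjugating enzyme gene Ugt1a1 (1.40) and Ugdh (0.72), which makes the sugar donor. In untreated LSKO against WT 21 of the 42 P450 genes were higher and 1 lower (median 0.98), 9 of the 22 glutathione S-transferases were higher and 1 lower (0.43), and 10 of the 21 glucuronidation and sulfation genes were higher (0.78). The background there was 5.94% higher and 2.01% lower. Treated were higher than untreated LSKO in 1, 9 and 3 of these genes (background 1.44%), with medians of 0.0028, 0.362 and 0.22. In these 3 lists no gene was called without zinc or without either WT library, and 17, 14 and 15 were called higher without iron.

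Of 28 bile acid genes 4 rose (background 1.79% higher). They were the phospholipid exporter gene Abcb4 (1.49 ± 0.13, adjusted p = 0.00897), the bile acid carrier gene Slc10a2 (1.70), the sterol carrier gene Scp2 (1.30) and Acox2 (0.96), which shortens the side chain. Abcb4 was one of the least variable rises, at 32.0 and 33.3 CPM in WT and 89.4, 91.1 and 93.6 in the treated libraries. The list had a median of 1.01, against 0.82 in untreated LSKO, where 15 of the 28 were higher and 1 lower than in WT (background 5.94% and 2.01%). It had 0 calls without zinc and 13 without iron, and 0 without either WT library.

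Some transcripts of nitrogen and glucose metabolism were also higher. In the urea cycle, which turns ammonia into urea, 3 of 17 genes rose (background 1.79% higher, here and for the lists that follow). Arg1, the arginase of its last step, read 7.35 and 7.16 CPM in WT and 61.6, 80.9 and 49.9 in the treated libraries (3.14 ± 0.24, adjusted p = 0.00897), and Cps1, the enzyme of its entry step, read 21.1 and 19.2 CPM and then 93.2, 126 and 89.4 (2.35 ± 0.20, adjusted p = 0.00897). The alanine transaminase gene Gpt rose by 1.23, and the median of the list was 0.32. Of 33 amino acid catabolism genes 10 rose and none fell, with a median of 0.65. The genes of tyrosine breakdown Tat, Hpd and Hgd rose by 1.78, 2.37 and 2.29. Tat, a classical glucocorticoid target, was the highest with iron (30.8 and 26.2 CPM in WT, then 141, 70.8 and 81.8). Of 23 gluconeogenesis and glycogen genes 6 rose, with a median of 0.94, among them Tat by 1.78, the glucose-6-phosphate carrier gene Slc37a4 by 1.61, Ugp2 by 1.16 and the fructokinase gene Khk by 1.06. In untreated LSKO against WT 5 of the 17, 17 of the 33 and 14 of the 23 were higher (background 5.94%), with medians of 0.19, 0.71 and 0.85. Treated and untreated LSKO differed in 0, 0 and 1 of them (background 1.44% higher and 2.32% lower). Without the zinc library 1 of the 17 was called, and 0 of the 33 and 0 of the 23. Without either WT library none of these was called, and without iron the higher calls were 6, 15 and 12, with 1 lower among the 23.

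Few genes of lipid metabolism were called. The fatty acid carrier gene Fabp1 (2.16 ± 0.39, adjusted p = 0.0412) and the lipid droplet gene Plin5 (1.27) rose among 31 genes of fatty acid oxidation and ketogenesis (background 1.79% higher). In that list 10 higher and 2 lower passed 0.05 before adjustment (background 8.59% and 6.76%). All 3 treated libraries lay above both WT libraries in 14 of the 31 and below in 6 (background 17.6% and 18.1%). In untreated LSKO 8 of the 31 were higher than in WT (background 5.94%). Insig2, which holds back cholesterol synthesis, was the only call among 27 cholesterol genes (0.70 ± 0.13, adjusted p = 0.0403). Of 22 genes of fatty acid and triglyceride synthesis none was called by edgeR or DESeq2 (2 higher and 2 lower passed 0.05 before adjustment). In retinoid metabolism Rdh7 (2.40) and Stra6l (0.91) rose and Cyp26b1 fell by 2.25, among 20 tested (background 1.79% higher and 0.613% lower).

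Few genes of the metals themselves were shared by the 3 libraries. Among 11 ZIP transporters Slc39a8 was the only call. Slc39a14, the closest relative of Slc39a8, read 66.8 and 71.5 CPM in WT and 68.0, 74.95 and 73.6 (log2 fold change 0.06 ± 0.12, adjusted p = 0.859). None of 6 zinc exporters was called by edgeR or DESeq2 (0 higher and 1 lower passed 0.05 before adjustment). The metallothioneins, small proteins that bind zinc and are induced by it, stood higher in each treated library than in WT without passing the test: Mt1 read 555 and 562 CPM in WT and 846, 1284 and 1673 (1.18 ± 0.27, adjusted p = 0.0856), and Mt2 read 505 and 470 CPM and then 597, 1028 and 1430 (1.06 ± 0.33, adjusted p = 0.189). Both ran from lowest with iron to highest with zinc. Of the 3 genes on that list 2 were higher at an unadjusted p under 0.05, and DESeq2 called 2.

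Each metal was also compared with WT on its own, in a fit of all 8 libraries in 6 groups in which the spread comes from the WT and untreated LSKO pairs. That fit called 799 genes higher (6.42%) and 644 lower (5.18%) with iron, 1777 (14.3%) and 1800 (14.5%) with selenite, and 865 (6.95%) and 476 (3.83%) with zinc. Without WT replicate 1 or 2 the totals of 1443 for iron and 1341 for zinc were 478 or 600 and 340 or 241. Among iron-handling genes the metals parted. Hamp, which encodes the iron hormone hepcidin, read 2.54 and 2.08 CPM in WT, 1.08 with iron, 10.6 with selenite and 11.3 with zinc, and was called against WT with selenite (2.21, adjusted p = 0.000149) and zinc (2.28, adjusted p = 0.000263). The transferrin receptor gene Tfrc read 122 and 120 CPM in WT, 78.7 with iron, 185 with selenite and 200 with zinc, lower with iron (-0.60, adjusted p = 0.00279) and higher with selenite (0.64, adjusted p = 0.000527) and zinc (0.74, adjusted p = 0.000618). Neither was called over the 3 libraries together. Ncoa4, the receptor that delivers ferritin for breakdown, was the only call among 18 iron genes there, at 123 and 118 CPM in WT and 194, 199 and 174 (0.65 ± 0.12, adjusted p = 0.0486).

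Of 22 selenoprotein genes 1 was called for the 3 libraries together (background 1.79% higher). It was Dio3, which inactivates thyroid hormone, at 2.40 and 2.95 CPM in WT and 11.1, 6.792 and 6.797 (1.62 ± 0.31, adjusted p = 0.049). Before adjustment 6 of the 22 passed 0.05 as higher and 0 as lower (background 8.59% and 6.76%). In all 3 treated libraries 9 lay above both WT libraries and 0 below (background 17.6% and 18.1%). In the separate fit the list median was 0.24 with iron, 0.39 with selenite and 0.37 with zinc. In untreated LSKO 4 of the 22 were higher than in WT and 0 lower (background 5.94% and 2.01%). Gpx1, the cytosolic glutathione peroxidase and a gene sensitive to selenium supply, read 1033 and 966 CPM in WT, 969 with iron, 2902 with selenite and 1423 with zinc (0.82 ± 0.42, adjusted p = 0.436). Selenop, the selenium carrier of plasma, read 4216 and 3780 CPM in WT and 6239, 9674 and 5959, above WT in all 3 and not called (0.87 ± 0.25, adjusted p = 0.151). In the separate fit the zinc exporter gene Slc30a1 was higher with zinc (0.85, adjusted p = 0.000612) and the zinc importers Slc39a4 and Slc39a10 were lower with zinc (-1.14 and -1.73, adjusted p = 0.000171 and 0.000925).

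**Figure D5:**
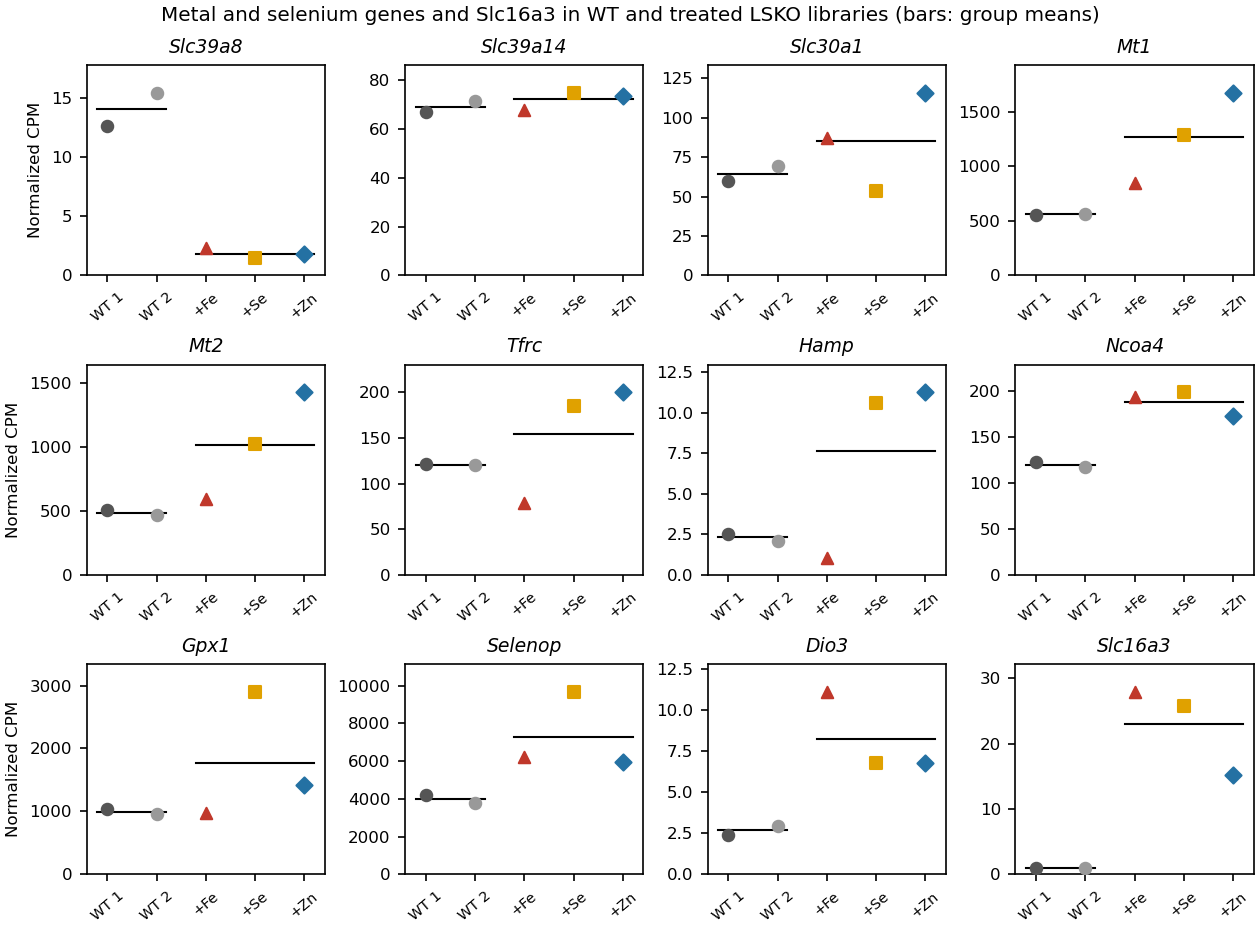
Normalized CPM of 11 metal and selenium genes and Slc16a3, 1 panel per gene with its own axis from 0, in the 2 WT libraries and the LSKO libraries given iron, selenite or zinc, with black bars at the group means. Slc39a8 and Slc16a3 separate the groups, while Hamp, Tfrc and Gpx1 differ more among the treated libraries.

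Of 23 Notch pathway genes 2 fell (background 0.613% lower), both ligands. Notch ligands on one cell activate receptors on its neighbour, and endothelium is a major source of both. Dll4 read 4.22 and 5.29 CPM in WT and 1.13, 1.54 and 1.09 in the treated libraries (-1.93 ± 0.31, adjusted p = 0.029), and Jag1 read 17.8 and 18.9 CPM and then 5.68, 8.62 and 9.05 (-1.24 ± 0.23, adjusted p = 0.043). Both moved with the endothelial markers above, and that part was not tested. In untreated LSKO 3 of the 23 were lower than in WT (background 2.01%), and 7 were lower in treated than in untreated LSKO (background 2.32%). The list had a median of -0.31, with 10 genes below both WT libraries (background 18.1%). In the fit of all 8 libraries the list had medians against WT of -0.14 with iron, -0.81 with selenite and -0.35 with zinc. It had 0 calls without zinc or without either WT library, and 1 higher and 5 lower without iron. Phgdh, the entry enzyme of serine synthesis, was the only call among 22 genes of the ATF4 amino acid response (-1.19 ± 0.21, adjusted p = 0.0375). That list had a median of -0.35 and 11 genes below both WT libraries (background 18.1%). The metals differed here, with list medians against WT of -0.0055 with iron, -0.74 with selenite and -0.47 with zinc in the fit of all 8 libraries. The summed level was 3031 and 3009 CPM in WT, 3214 with iron, 2072 with selenite and 2372 with zinc. In untreated LSKO 7 of the 22 were lower than in WT (background 2.01%, median -0.41). The matrix gene Sparc fell by 1.16 among 33 matrix genes, whose median was -0.63. The gap junction genes Gjb1 and Gjb2 rose by 1.59 and 0.95, Igfbp2 by 1.89, Cebpd by 1.25, the sialyltransferase gene St3gal1 by 1.06 and Fos by 1.51.

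Several basic programs had no call by edgeR. These were 75 nuclear genes of oxidative phosphorylation (2 higher at an unadjusted p under 0.05, 0 by DESeq2), 76 cytosolic ribosomal protein genes (0 and 0), 13 genes of the mitochondrial genome (0 and 0), 32 cell cycle genes (6 lower at an unadjusted p under 0.05, 2 lower by DESeq2), 25 genes of the unfolded protein response (1 higher, 0 by DESeq2), 21 heat shock genes (1 higher, 1 by DESeq2) and 21 p53 targets (4 higher and 2 lower, 1 by DESeq2). Their medians lay between -0.26 for the cell cycle and 0.27 for oxidative phosphorylation. In the latter the metals differed, at -0.18 with iron, 0.60 with selenite and 0.29 with zinc. Of 27 NRF2 targets 4 rose (background 1.79% higher), and 3 of these, Gsta2, Gstm3 and Gstm1, were glutathione S-transferases. The other was Ugdh. Before adjustment 12 higher and 3 lower of the 27 passed 0.05. In untreated LSKO 3 of the 27 were higher than in WT and 5 lower (background 5.94% and 2.01%, median 0.011). In treated against untreated LSKO 7 were higher (background 1.44%) and 0 lower.

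Untreated LSKO cells, compared with the same WT libraries in the 8-library fit, had 739 genes higher (5.94%) and 250 lower (2.01%). The sum of 989 was 1510 without LSKO replicate 1, the library with more Slc39a8 reads, 550 without LSKO replicate 2, and 379 and 408 without WT replicates 1 and 2. Over the 222 genes called higher in treated LSKO cells the median log2 fold change against WT was 1.36 with iron, 1.87 with selenite, 1.53 with zinc and 1.43 in untreated LSKO. Over the 76 called lower it was -1.37, -1.19, -1.12 and -0.65. All these values rest on the same 2 WT libraries. The 222 and 76 genes were called with the treated libraries, which favours larger changes there than in untreated LSKO. The direct comparison of treated with untreated LSKO called 179 genes higher (1.44%) and 289 lower (2.32%), of which 27 were among the 222 and 27 among the 76. Its total of 468 was 981 without the iron library and 710 without LSKO replicate 2. Of the 19 endothelial markers 13 were lower in treated than in untreated LSKO, of the 19 major urinary protein genes 14 were higher, and of the 22 glutathione S-transferase genes 9 were higher. Of the 23 gluconeogenesis genes 0 were higher and 1 lower. The untreated LSKO files hold 0 low-quality reads and 9.44% and 10.0% unaligned reads, against 592678 to 680199 low-quality reads and 4.13% to 4.94% unaligned reads in the WT and treated libraries, so a difference in read handling goes with this comparison and with untreated LSKO against WT, and its part was not tested.

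Called falls came from longer transcripts than called rises, with a median length of 4516.5 bases against 2231.5 (3374 in genes not called), and the GC content was 52.1% and 49%. With a correction for length and GC content 280 of the 298 calls were kept among 429.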

How the data were processed

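RNA was sequenced from primary mouse hepatocytes. The deposited values are raw read counts per gene, 1 file per sample, made by the authors with Trimmomatic, HISAT2 and HTSeq on GRCm38, per the labels and the study's methods, which also name DESeq2. The release of the annotation was not given in the sources used here, nor was the strand setting. The 55450 identifiers in each file all matched GENCODE M21. Reads in no gene (44.4% to 45.6% of the 5 libraries) and the other summary rows stayed out of library sizes and tests.

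The 5 libraries were fitted as 2 groups in R 4.3.3 with edgeR 4.0.16: at least 50 counts summed over libraries, TMM factors (0.889 with selenite, 0.982 to 1.06 in the others), the quasi-likelihood F-test and Benjamini-Hochberg adjustment over all 15378 genes, with calls as defined above. Each standard error is the size of the log2 fold change over the root of its F value. The fit had 3 residual degrees of freedom. A second fit took all 8 libraries in 6 groups (sum of at least 80 counts, 2 residual degrees of freedom). It includes the LSKO library given manganese, as a group of its own. That library had 72.2% of its reads in genes and 4.48% in no gene, against 39.3% to 42.1% and 42.3% to 45.6% in the others. The part of this difference in the second fit was not tested. A total of 52 gene lists with 1317 entries was used, 4 of which (Hjv, C5, Ctgf, Cyr61) did not match a symbol. The lists and the comparison were chosen with earlier results of these data known. Named genes are Slc39a8, the 15 largest rises and 15 largest falls of at least 5 mean CPM with established symbols, up to 5 called members per list, and the 2 of smallest p where none was called. Some genes that this rule picks are not reported here. Every other named gene was chosen after its values were seen. Alternatives were DESeq2 1.42.0, other scalings, filters and thresholds, a length and GC correction (splines with 4 degrees of freedom, MASS 7.3.60.0.1), genes with opposite-strand exons left out, and each library left out.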

Additional observations from a re-analysis of the deposited data

Results flagged for a closer look

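In the fit of all 8 libraries, 32 of the named genes that were called against WT also differed between treated and untreated LSKO, which is the test of the difference between those contrasts (edgeR quasi-likelihood, adjusted p under 0.05). Most named genes were picked by their values in the same treated libraries, which favours differences in the called direction. Over all protein-coding genes 1.44% were called higher and 2.32% lower in that comparison. Read handling differs between the untreated LSKO files and the others, as described above, and its part was not tested. The following values are log2 fold changes, treated minus untreated LSKO. Genes higher in treated LSKO were Mup19 (2.47), Mup11 (1.39) and Mup17 (0.902), near-identical copies that share reads, the acute phase genes Saa3 (1.67), Orm2 (0.862), Fgl1 (0.627) and Hpx (0.593), and the glutathione S-transferase genes Gsta2 (1.55), Gstm2 (1.21), Gstm6 (0.61) and Gstm1 (0.521). Fos (1.3), Serpina7 (1.21), Cyp2a5 (0.978), Cpb2 (0.938), Defb1 (0.732), Ugt2b35 (0.558) and Ugt2b5 (0.527) were higher as well. In Fos the untreated LSKO cells differed from WT by 0.22 and the treated cells by 1.52 in the same fit.

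Genes lower in treated than in untreated LSKO were led by Aqp1 (-1.81), Cyp26b1 (-1.77), Kdr (-1.62), Dll4 (-1.5) and Xirp2 (-1.44). Genes expressed in sinusoidal endothelium followed, with Ptprb (-1.17), Eng (-1.05), Mrc1 (-0.959), Tie1 (-0.894), Stab1 (-0.79), Robo4 (-0.744) and Stab2 (-0.694), beside Bmp2 (-0.996) and Trp53i11 (-0.829). Their log2 fold changes in untreated LSKO against WT ran from -0.42 in Dll4 to -1.25 in Xirp2. For Slc39a8 the difference was -1.40 with an adjusted p of 0.0964, with 185 and 51 reads in the untreated LSKO libraries.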

How the results depend on the processing

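The count of 298 calls, all shared by the 3 treated libraries, moved with the tool, the filter and single libraries, the cause of which was not tested. It was 804 calls (680 shared) with DESeq2, 1876 (985) in the fit of 8 libraries, where the biological coefficient of variation was 8.29% against 19.7% in the fit of 5, and 1051 (734) with no filter on low counts. With a log2 fold change beyond 1 in each treated library 196 were shared, fewer by construction. The split of 222 higher to 76 lower was 925 to 951 in the 8-library fit and 540 to 264 with DESeq2 and 663 to 388 with no filter. Leaving out a library gave 0 to 1427 calls and 0 to 1143 shared: 0 without either WT library, 5 without zinc, 324 without selenite, and 1427 without iron. Median-ratio size factors gave 291, filterByExpr 296, the length and GC correction 429 (392 shared), and leaving out genes with opposite-strand exons 236. All 298 genes were called by DESeq2 and without iron, 267 without selenite. Of 145 named genes 109 lost their call without either WT library, 105 without zinc, 8 without selenite, 6 with median-ratio factors and 3 with the length and GC correction, and no named gene reversed.

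With DESeq2, calls were 637 for untreated LSKO against WT (989 with edgeR), 237 for treated against untreated LSKO (468), 859 for iron (1443) and 836 for zinc (1341). Treated against untreated LSKO gave 725 with no filter. Leaving out a library gave 379 to 1510 for untreated LSKO against WT, 372 to 981 for treated against untreated LSKO, 478 to 600 for iron, 2799 to 3586 for selenite and 241 to 340 for zinc. No paired analysis was possible because the treated LSKO libraries carry no replicate number. With 1 library per metal, a gene's response to a single metal was not measured against replicates of that culture.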

Other observations

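Of the 298 called genes 169 were on none of the gene lists. The genes in these paragraphs were chosen after their values were seen. Several further genes known from endothelium were lower in treated LSKO cells, the transcription factor gene Sox18 (2.47 and 2.95 CPM in WT, then 0.294, 0.289 and 0.644, log2 fold change -2.69 ± 0.46), Kit (-1.27), Nrp2 (-1.17), Adgrl4 (-1.16), Esm1 (-0.85), Adgrf5 (-0.84), Cd93 (-0.82) and Angpt2 (-0.81). Msn, which ties membranes to the actin cortex, fell from 345 and 342 CPM to 150, 186 and 179 (-1.004 ± 0.13, adjusted p = 0.0206), and the scaffold gene Iqgap1 by 0.61. Pck2 and the cysteinyl-tRNA synthetase gene Cars fell by 1.18 and 0.59. Among the rises, the urate oxidase gene Uox read 32.3 and 33.1 CPM in WT and 236, 310 and 115 (2.75 ± 0.40, adjusted p = 0.0232), beside Urad of urate breakdown (2.84). The subunits of the hepatic asialoglycoprotein receptor, Asgr1 and Asgr2, rose by 2.29 and 1.34. Pdk1 rose by 1.55, and the interferon-induced Trim30a, Cmpk2 and Dhx58 by 1.83, 1.62 and 1.44.

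A few called genes had almost no reads in one group, so no fold is given except as a bound. They passed the filter of at least 50 summed counts almost only through the group where they are high. Their one-sided counts are therefore partly set by that filter and are given as description. Cyp17a1, a steroid hydroxylase gene, had 0 and 1 reads in WT and 53, 134 and 39 reads with iron, selenite and zinc, and 67 and 142 in untreated LSKO. Ndufa4l2, a hypoxia-induced mitochondrial gene that overlaps an exon on the opposite strand, had 0 and 4 reads in WT and 130, 133 and 157 in the treated libraries, and 88 and 201 in untreated LSKO. Fbln2, a matrix gene, had 33 and 15 reads in WT and 0, 1 and 1 in the treated libraries, with 8 and 11 in untreated LSKO. Xlr4b, an X-linked gene with close copies, had 37 and 26 reads in WT and 0 in each treated library, at least 8.74-fold lower against a floor of 3 reads per library, and 3 and 0 reads in untreated LSKO.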
